A study of Saccharomyces cerevisiae with 16 samples.

Results

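The late wave of the response to benomyl in wild-type (WT) Saccharomyces cerevisiae is the set of transcript changes seen 40 min after the drug was added, read against the mean of the arrays at 10 and 20 min. Its members are the genes with a value on all 3 of these WT arrays, 4758 of the 6321 genes and unnamed probes of the series, and 4330 of them carry a gene name. On each array, total RNA of WT cells with benomyl was set against total RNA of WT cells without it. The values are log ratios, read here as log2 of cells with the drug over cells without it, so that 1 stands for a 2-fold higher and -1 for a 2-fold lower transcript level with benomyl. Strains that lack YAP1 or PDR1 (DeltaYAP1 and DeltaPDR1) were measured in the same way, each against its own cells without the drug, and enter with their arrays at 10 and 20 min. No array of a deletion strain at 40 min was analysed here, and each strain and time has 1 array. The drug dose, the medium, the strain background and whether an array pools several hybridisations are not given in the sources used here. Both channels of an array hold the same strain, so the labelled deletions could not be checked from the ratios.

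Benomyl binds tubulin and depolymerises microtubules, and it also sets off a chemical stress response. In that response the transcription factor Yap1 enters the nucleus and activates genes for drug efflux, for glutathione and thioredoxin metabolism and for oxidoreductases, while Pdr1 and its relative Pdr3 activate membrane pumps such as Pdr5. Stressed yeast cells commonly also induce a general stress programme, driven in large part by Msn2 and Msn4, which includes chaperones, hexose kinases and enzymes of storage carbohydrates, and lower the transcripts that build ribosomes. In bulk RNA, a change in the share of cells in some state and a change of RNA per cell cannot be told apart.

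The array at 40 min had the widest distribution of the WT arrays, with an SD over probes of 0.594, against 0.535 at 20 min and 0.400 at 10 min. All 16 arrays had been centred before deposit, with means between -0.00120 and 0.00047, and a change common to every transcript is therefore invisible. The 40 min array gave values for 6014 genes and probes, but 1157 of these lacked a value at 10 min and stay outside the set described here.

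Among the 4758 genes, 162 (3.4%) stood at least 2-fold up and 136 (2.86%) at least 2-fold down at 40 min. For the mean of 10 and 20 min these numbers were 93 up and 11 down. The genes 2-fold up at 40 min fell into 59 that were newly up (an earlier mean under 0.5), 37 that had grown (an earlier mean from 0.5 to under 1) and 66 that persisted (an earlier mean of at least 1). On the other side, 98 genes were newly down, 32 had grown to this level and 6 were persistently down. Of the genes 2-fold up earlier, 19 had partly returned (between 0.5 and 1 at 40 min) and 8 had returned to under 0.5. Of those 2-fold down earlier, 5 had partly returned and 0 had returned. These classes are cut by size on the same 3 arrays and carry no test. At the edge of the newly up class HIS4, of histidine synthesis, stood at 1.001 inside and DCS1, an mRNA decapping scavenger, at 0.999 outside.

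**Figure D1:**
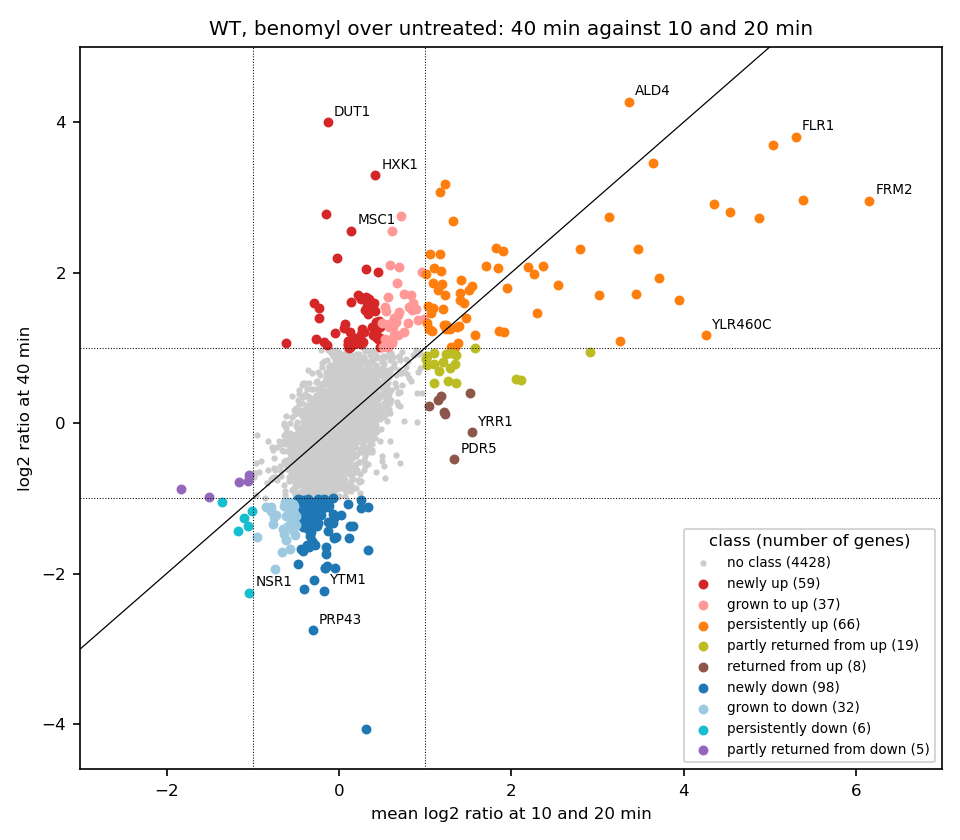
Each point is 1 of the 4758 genes, with its mean log2 ratio at 10 and 20 min on the horizontal axis and its log2 ratio at 40 min on the vertical axis; colours give the classes and dotted lines mark 2-fold. The 59 newly up and 98 newly down genes form columns above and below an earlier mean near 0, while the strongest early genes, such as FRM2 and FLR1, lie below the line of equal values.

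The step at 40 min was tested with limma against the spread between arrays of the same strain and phase, pooled over all 16 arrays. Of 4735 genes tested, 86 (1.82%) were called higher and 98 (2.07%) lower at 40 min than at 10 and 20 min, with the Benjamini-Hochberg adjusted p below 0.05, and 41 and 59 of these differed by at least 1 on the log2 scale. Before adjustment 915 genes had p under 0.05, where 5% of the genes would be 237. The lone 40 min array is assumed to vary like the others, so these calls have no replicate check. They also rest on the deposited spread of the arrays. With the arrays scaled to equal spread, 0 genes were called higher and 1 lower, and 157 had p under 0.05 before adjustment. Without the 20 min array the calls numbered 218 higher and 215 lower, and without the 10 min array 63 and 50. Among the 63 calls of genes chosen to be named, 32 were lost without the 10 min array and 6 without the 20 min array. From here on, rose and fell refer to calls over all 16 arrays without scaling. Of the 98 genes that fell, 77 were already lower at 20 min than at 10 min, against 48.9% of all genes. Of the 86 that rose, 50 were higher at 20 min than at 10 min, a share near the 50.9% of all genes. The arrays at 10 and 20 min also enter the calls, so both shares describe the course and are no independent support for an earlier start. The classes were cut on the same arrays as this contrast, so a call of a class member describes its step and is no independent support for the class.

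The highest newly up genes at 40 min included DUT1, HXK1 and MSC1 and the permease genes AGP3 and AGP1. DUT1, the dUTPase that keeps uracil out of DNA, had log2 ratios of 0.20, -0.47 and 4.00 at 10, 20 and 40 min. HXK1, a hexokinase that is induced when glucose is scarce, had 0.45, 0.39 and 3.30. Both were within 0.5 of 0 at 10 and 20 min and far above it at 40 min. DUT1 rose by 4.13 ± 0.34 (SE, adjusted p = 1.91e-05) and HXK1 by 2.88 ± 0.21 (adjusted p = 6.78e-06). MSC1, a gene of the stress response, stood at 0.45, -0.17 and 2.56 at 10, 20 and 40 min and rose by 2.42 ± 0.25. AGP3 and AGP1 are both amino acid permeases. AGP3 stood at 0.09, -0.13 and 2.20 at 10, 20 and 40 min and rose by 2.22 ± 0.22. AGP1 stood at 0.35, 0.55 and 2.00 and rose by 1.55 ± 0.20 on the log2 scale. The late level of both permeases lay well above their earlier ones.

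GAD1, PGM2 and HSP26 are further newly up genes, known for roles in stressed cells. GAD1, glutamate decarboxylase, stood at -0.30, -0.28 and 1.59 at the 3 times and rose by 1.89 ± 0.19. PGM2, the phosphoglucomutase that feeds glycogen and trehalose synthesis, stood at -0.27, 0.90 and 2.04 and rose by 1.73 ± 0.32. HSP26, a small heat shock protein that holds unfolded proteins, stood at 0.13, 0.39 and 1.65 and rose by 1.40 ± 0.23. GAD1 was still below 0 at 20 min, whereas PGM2 was on its way up by then. BOP2 stood at -0.01, -0.30 and 2.78, but had too few values on the other arrays to be tested. DDL1, a phospholipase, stood at 0.47, 0.13 and 1.66 and rose by 1.36 ± 0.18, and YHR138C stood at 0.05, 0.45 and 1.68 and rose by 1.43 ± 0.27. Of all 59 newly up genes, 36 were under 0.5 at both 10 and 20 min, and 19 had reached 0.5 by 20 min. All 59 stood higher at 40 min than at 20 min.

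**Figure D2:**
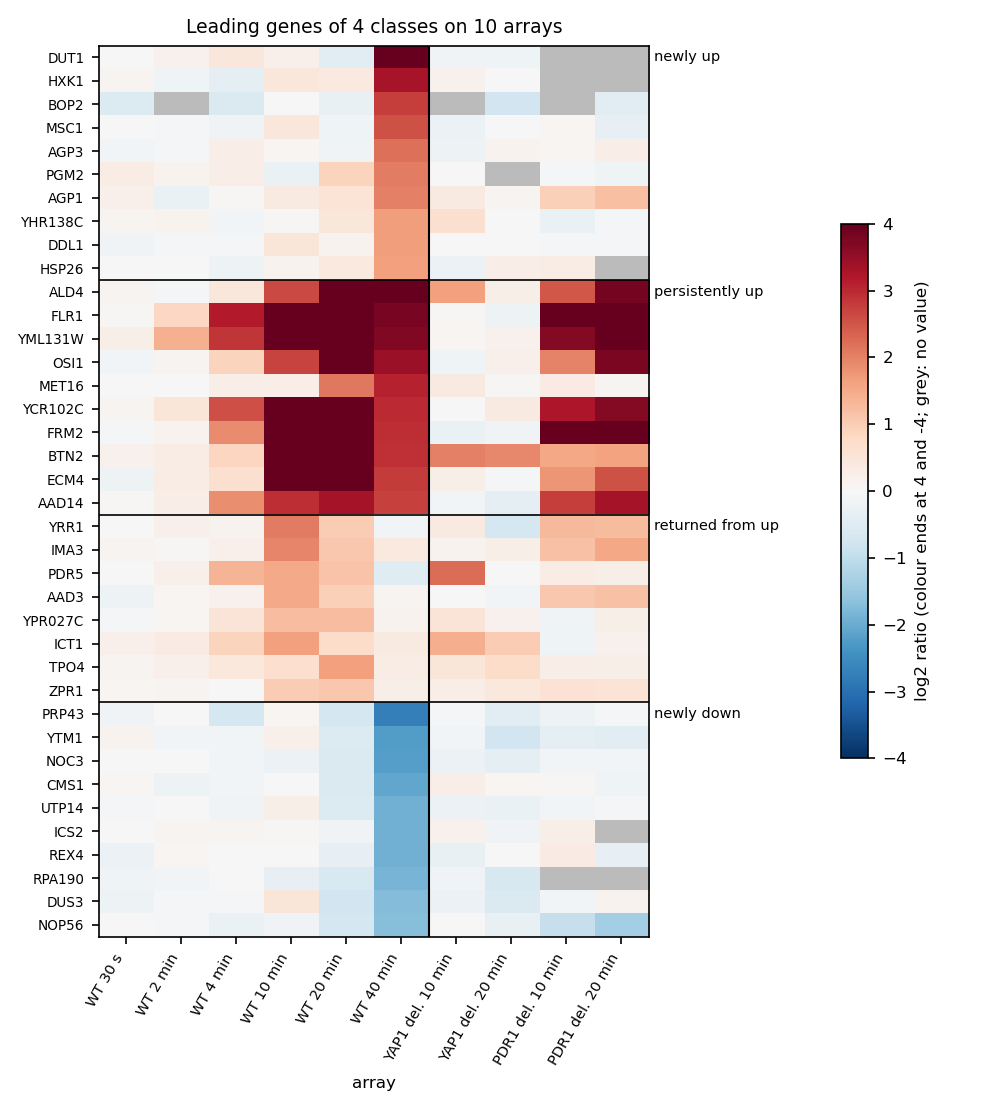
Log2 ratios of the leading genes of 4 classes (rows) on 10 arrays (columns), with WT left and the deletion strains right of the black line; red is higher and blue lower with benomyl, and grey marks no value. The newly up and newly down genes are paler on the WT arrays before 40 min than at 40 min, where DUT1 reached 4.00 and PRP43 -2.75, whereas FLR1 and FRM2 are darkest at 10 and 20 min.

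Of the 98 newly down genes, 17 belong to the list of ribosome biogenesis genes, which holds 91 of the 4758 genes. PRP43, an RNA helicase of splicing and of ribosome assembly, stood at 0.08, -0.69 and -2.75 at 10, 20 and 40 min. YTM1, which assembles the large ribosomal subunit, stood at 0.20, -0.55 and -2.23. NOC3, which moves pre-ribosomes within the nucleus, stood at -0.24, -0.57 and -2.21. The lowest of the class was a probe without a gene name, at 0.105, 0.52 and -4.07. The 3 named genes moved below 0 by 20 min and much further by 40 min. PRP43 fell by 2.45 ± 0.31 (SE, adjusted p = 0.000229), YTM1 by 2.05 ± 0.29 (adjusted p = 0.000768) and NOC3 by 1.80 ± 0.17 (adjusted p = 1.91e-05). UTP14 and CMS1 belong to the machinery of the small subunit. UTP14 stood at 0.22, -0.53 and -1.93 and fell by 1.78 ± 0.27 on the log2 scale. CMS1 stood at 0.00, -0.57 and -2.08 and fell by 1.79 ± 0.23. ICS2, whose function is not established, stood at 0.04, -0.13 and -1.93 and fell by 1.89 ± 0.20, and REX4, a putative RNA exonuclease, stood at -0.01, -0.32 and -1.93 and fell by 1.76 ± 0.28.

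Both RPA190 and NOP56 were part of the way down by 20 min. RPA190, the largest subunit of RNA polymerase I, stood at -0.33, -0.62 and -1.87 at 10, 20 and 40 min and fell by 1.40 ± 0.23. NOP56, a core protein of the snoRNPs that methylate rRNA, stood at -0.14, -0.70 and -1.69 and fell by 1.27 ± 0.26. DUS3 and DUS4 make dihydrouridine in RNA. DUS3 stood at 0.47, -0.76 and -1.74 and fell by 1.59 ± 0.35. DUS4 stood at 0.63, 0.05 and -1.68 and fell by 2.02 ± 0.24, so that only DUS3 of this pair was clearly below 0 at 20 min. Neither NOP56 (adjusted p = 0.0826) nor DUS3 (0.0648) was called without the 10 min array. Of the 98 newly down genes 49 were above -0.5 at both 10 and 20 min, and 97 stood lower at 40 min than at 20 min.

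The genes of the grown classes had an earlier mean between 0.5 and 1 in size, but 16 of the 37 up and 8 of the 32 down were already at 2-fold at 20 min. Of all 37 and 32, 33 and 30 went further by 40 min. The 37 that grew upwards had medians of 0.34 at 10 min, 0.94 at 20 min and 1.40 at 40 min, and the 32 that grew downwards had medians of -0.35, -0.84 and -1.24. PIG1, a regulatory partner of the phosphatase that acts on glycogen synthase, stood at 0.48, 0.76 and 2.55 and rose by 1.93 ± 0.23. COX5B, a subunit of cytochrome c oxidase used at low oxygen, stood at 0.25, 0.94 and 2.11 and rose by 1.51 ± 0.33. Both made most of their gain after 20 min. AIM17 showed another course, with -0.72, 2.11 and 2.07 at these times, and its difference of 1.37 ± 0.67 was not called (adjusted p = 0.276). HNM1, the choline transporter, stood at -0.38, -0.94 and -1.71 and fell by 1.05 ± 0.23. COX5B (adjusted p = 0.118) and HNM1 (0.129) were not called without the 10 min array, while without the 20 min array AIM17 was called higher (adjusted p = 1.18e-05).

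**Figure D3:**
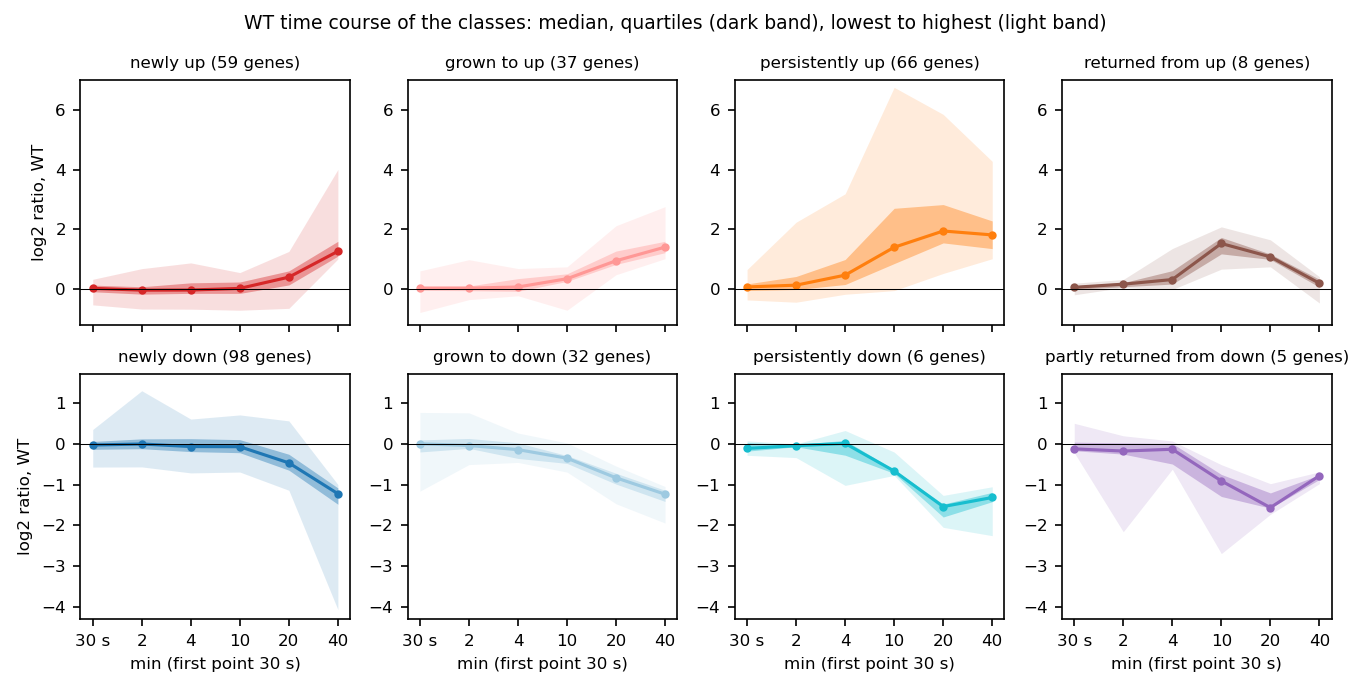
WT log2 ratios from 30 s to 40 min for 8 classes, as the median (line), the quartiles (dark band) and the lowest to highest gene (light band); the time axis is not to scale. The newly up and newly down medians leave 0 at 20 min and reach 1.26 and -1.23 at 40 min, while the persistently up median peaks at 1.94 at 20 min.

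The 66 persistently up genes had medians of 1.39 at 10 min, 1.94 at 20 min and 1.81 at 40 min. Within the class the strongest early genes were past their highest value. FRM2, a nitroreductase-like protein, stood at 6.75, 5.55 and 2.96 and fell by 3.20 ± 0.85 (adjusted p = 0.0466). YLR460C, which resembles quinone oxidoreductases, stood at 4.38, 4.14 and 1.17 and fell by 3.09 ± 0.55. The glutathione transferase genes ECM4 and GTT2 fell too. ECM4 stood at 4.04, 5.04 and 2.80 and fell by 1.74 ± 0.43, and GTT2 stood at 3.78, 3.64 and 1.92 and fell by 1.79 ± 0.42. All 4 genes were still over 2-fold up at 40 min. Leaving out the 10 min array gave a difference of -2.59 for FRM2 and -1.72 for GTT2. Without the 20 min array the difference of ECM4 was -1.24. The calls of these genes were lost in those fits, which hold a single earlier array and are less precise for that reason as well. FLR1, an efflux pump known to confer benomyl resistance, stood at 5.48, 5.12 and 3.81, and its difference of -1.49 ± 1.02 was not called (adjusted p = 0.450). At 40 min 27 of the 66 genes stood below both earlier values and 23 stood above their value at 20 min.

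Other persistent genes were at their highest at 40 min. ALD4, the mitochondrial aldehyde dehydrogenase, stood at 2.65, 4.08 and 4.27, the highest value among the 4758 genes at 40 min, and its difference of 0.91 ± 0.60 was not called (adjusted p = 0.436). With arrays scaled to equal spread the difference of ALD4 turned to -0.55. MET16, which reduces activated sulphate for methionine and cysteine, stood at 0.26, 2.09 and 3.08 and rose by 1.90 ± 0.47 (adjusted p = 0.0369), or 0.0559 without the 10 min array.

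The 8 genes that returned from 2-fold up had medians of 1.52 at 10 min, 1.07 at 20 min and 0.19 at 40 min, and each of them stood below both earlier values at 40 min. They were YRR1, IMA3, PDR5, AAD3, YPR027C, ICT1, TPO4 and ZPR1. YRR1, a transcription factor of multidrug resistance genes, stood at 2.08, 1.001 and -0.12 and fell by 1.66 ± 0.37 (adjusted p = 0.0223). PDR5, the main multidrug pump of the plasma membrane, stood at 1.53, 1.15 and -0.47, and its difference of -1.81 ± 0.61 was not called (adjusted p = 0.104). ZPR1, a partner in the folding of an elongation factor, stood at 1.02, 1.08 and 0.22 and fell by 0.83 ± 0.17. PDR5 alone of the 3 ended clearly below 0. The isomaltase genes IMA3 and IMA4 resemble each other closely enough to share signal on an array. IMA3 fell by 1.11 ± 0.26 and the partly returned IMA4, with 3.44, 2.38 and 0.94 at the 3 times, fell by 1.97 ± 0.48. YRR1 (adjusted p = 0.129), AAD3 (0.124), IMA3 (0.136) and IMA4 (0.167) were not called without the 10 min array. YPR027C, with an adjusted p of 0.0489 over all arrays, was not called without the 10 min array (0.137) or the 20 min array (0.0575).

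Downward responses that persisted or eased were few. The 6 persistently down genes stood between -0.776 and -0.204 at 10 min, and all 6 were 2-fold down at 20 min. Their earlier mean therefore reached 2-fold through the 20 min array. NSR1, nucleolin, stood at -0.20, -1.87 and -2.25 at the 3 times, the lowest late value of the 6 persistently down genes, and its difference of -1.22 ± 0.49 was not called (adjusted p = 0.191). MNN1, a mannosyltransferase, ERG3, a sterol desaturase, and YOX1, a cell cycle repressor, stood between -1.26 and -1.44 at 40 min. RNR3, a ribonucleotide reductase subunit known for its induction by DNA damage, stood at -1.29, -1.73 and -0.98 and was 1 of the 5 that had partly returned. Of these 11 genes limma called 0 in either direction, and 1 had p under 0.05 before adjustment. Without the 20 min array NSR1 was called lower (adjusted p = 0.00264). With scaled arrays the differences of MNN1, ERG3 and YOX1 turned positive.

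Gene lists were read by their number of calls and their median difference, beside 1.82% higher, 2.07% lower and a median difference of 0.015 over all genes. Before adjustment, 433 of all 4735 genes tested were higher and 482 lower at p under 0.05. In the list of general stress genes limma called 5 of 23 higher and 0 lower (9 and 0 at p under 0.05 before adjustment). Its median level was 0.07 at 10 min, 0.39 at 20 min and 0.86 at 40 min, and its median difference was 0.44. Against the 20 min array alone the median difference was 0.10, and against the 10 min array alone 0.56. The 5 called genes were HXK1, MSC1, GAD1, GPP2, which makes glycerol, and TFS1, a protease inhibitor. HSP12, a small membrane-protecting protein, stood at -0.06, 2.71 and 2.69, so its gain was complete by 20 min, and it was not called (adjusted p = 0.238). MSN4 itself, which encodes one of the regulators, stood at -0.62, -0.47 and 0.36 and rose by 0.90 ± 0.20 (adjusted p = 0.0211). GPP2 (adjusted p = 0.173) and MSN4 (0.0959) were not called without the 10 min array, and without the 20 min array 11 of 27 genes of the list were called higher, HSP12 among them (adjusted p = 1.67e-06). With arrays scaled to equal spread the median difference of the list shrank to 0.11.

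In the list of sulphur metabolism 4 of 26 genes rose and 0 fell by limma (8 and 0 before adjustment), with a median difference of 0.23, or 0.03 with scaled arrays. Beside MET16, MET2, which starts homocysteine synthesis, stood at -0.24, 0.37 and 1.32 and rose by 1.25 ± 0.26. MET22, which clears a by-product of sulphate reduction, stood at -0.02, 0.84 and 1.59 and rose by 1.18 ± 0.26, and MET5, a sulphite reductase subunit, was the last of the 4. The fit without the 10 min array called 1 of 29 genes of the list, with adjusted p of 0.095 for MET2 and 0.0856 for MET22, and without the 20 min array 6 of 26 were called. In the lists of autophagy (16 tested), of trehalose and glycogen (10) and of glycolysis and fermentation (22) 1 gene each was called higher and 0 lower, and before adjustment 1 autophagy gene was lower. ATG19, the receptor that carries vacuolar hydrolases, stood at 0.22, 0.39 and 1.499 and rose by 1.20 ± 0.19, while PGM2 and HXK1 were the others. Without the 20 min array 5 autophagy genes were higher and 1 lower, and 3 trehalose and glycogen genes and 4 of glycolysis and fermentation were higher. In the list of glutathione and thioredoxin 2 of 32 genes rose and 2 fell, against 3 and 2 before adjustment, and 1 was called higher and 1 lower in the fit without the 10 min array and likewise in that without the 20 min array. TSA2, a thioredoxin peroxidase, stood at 0.27, -0.15 and 1.26 and rose by 1.20 ± 0.21, DUG3, of glutathione breakdown, rose by 0.66 ± 0.17, and GTT2 and ECM4 fell. Among genes of amino acid synthesis, SER3 and ARG7 rose and LEU1 fell (46 tested; 0 called without the 10 min array, 6 higher and 1 lower without the 20 min array), and the median difference of the 46 genes was 0.06. In the heat shock list, with 19 tested, HSP26 rose and BTN2, a factor that sorts misfolded proteins, fell by 1.45 ± 0.39. Before adjustment 5 genes of this list were higher and 1 lower. Its median difference was 0.26, or 0.105 against the 20 min array alone and -0.07 with scaled arrays. BTN2 stood at 4.54, 4.17 and 2.91. Left without a call when the 10 min array was dropped were SER3 (adjusted p = 0.112), ARG7 (0.0815) and BTN2 (0.183).

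Ribosome biogenesis held 13 genes that fell and 1 that rose, among 89 tested. The median level of its 91 measured genes was -0.15 at 10 min, -0.37 at 20 min and -0.68 at 40 min, and the median difference was -0.36. At 40 min 20 of the 91 stood 2-fold down, 17 of them newly down and 3 grown. MAK5, a helicase of the large subunit, was the 1 gene that rose, with -0.34, -0.35 and 0.54. The list is therefore not uniform: 64 of 91 differences were below 0 and 27 above, where 48.1% of all genes were below 0. Fits on the 6 WT arrays alone called 6 lower, without the 10 min array 7, without the 20 min array 24 and with scaled arrays 0, where the median difference was -0.10.

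The genes of the cytosolic ribosomal proteins had small differences that were nearly all below 0. Their median level was 0.02 at 10 min, -0.13 at 20 min and -0.52 at 40 min, and 106 of the 110 differences were below 0, where 48.1% of all genes were. RPP0, of the ribosomal stalk, and RPL42B were the 2 of 110 that limma called lower, and 0 were called higher. Before adjustment 52 had p under 0.05, all of them lower, against 482 lower of all 4735 genes. The fit without the 10 min array called 0 of 113 and the fit without the 20 min array called 13 of 109 lower. Many of these genes exist as near-identical pairs that can share signal on an array. In the list of RNA polymerases I and III 18 of 19 differences were below 0 and RPA190 was the 1 called. Among 28 translation factors limma called 0, with a median difference of -0.31 and 9 genes lower at p under 0.05 before adjustment. With scaled arrays the median difference was -0.22 for ribosomal proteins, -0.09 for the polymerases and -0.08 for the translation factors.

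The core histone genes stood 2-fold down at 40 min without exception, 8 of 8. The list had medians of -0.31 at 10 min, -0.69 at 20 min and -1.18 at 40 min. HTA1, a gene of histone H2A, stood at -0.34, -0.79 and -1.68 and fell by 1.11 ± 0.22 (adjusted p = 0.00998). HHT1, HHF2 and HHT2, genes of histones H3 and H4, made up the other calls, 4 in all, and these genes also come in near-identical pairs. Without the 10 min array, on the 6 WT arrays alone and with scaled arrays 0 of the 8 were called, without the 20 min array 6 were, and the scaled median difference was -0.28. The list of G1/S genes, in which histone genes are not counted, had a median difference of -0.04 that turned to 0.06 with scaled arrays. In it CDC45, a replication initiation factor, stood at -0.08, 0.02 and -1.52 and fell by 1.49 ± 0.31, while PRI2, of the primase, stood at 0.00, -0.08 and 0.77 and rose by 0.81 ± 0.21. PRI2 was not called without the 10 min array (adjusted p = 0.112) or without the 20 min array (0.0635).

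The targets of Yap1 had the highest median level of the 41 lists at each of the 3 times. Their median level was 1.71 at 10 min, 1.89 at 20 min and 1.79 at 40 min, and 19 of 27 were persistently up. By limma 0 rose and 4 fell (FRM2, YLR460C, GTT2 and ECM4), or 0 and 7 before adjustment, with a median difference of -0.32, or -0.67 with scaled arrays. Leaving out the 10 min array left 2 of 28 called lower. The transcript of YAP1 itself stood at 0.08, 0.34 and 0.40. The targets of Pdr1 and Pdr3 had a different course, with medians of 1.05, 0.60 and 0.19. Their median difference was -0.92, and 13 of 14 differences were below 0, against 48.1% of all genes. YLL056C was the 1 of 14 that was called lower. Before adjustment 8 of 14 were lower at p under 0.05, against 482 of all 4735 genes. YLL056C was not called without the 10 min array (adjusted p = 0.0814) or without the 20 min array (0.0554). SNQ2, a pump of the same family as PDR5, stood at 2.48, 1.74 and 0.57, and its difference of -1.54 ± 0.61 was not called (adjusted p = 0.169). PDR3, which activates its own gene, stood at 0.65, -0.30 and -0.03, and PDR1 at 0.18, 0.26 and 0.19. Some genes, such as GRE2, are in both target lists.

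**Figure D4:**
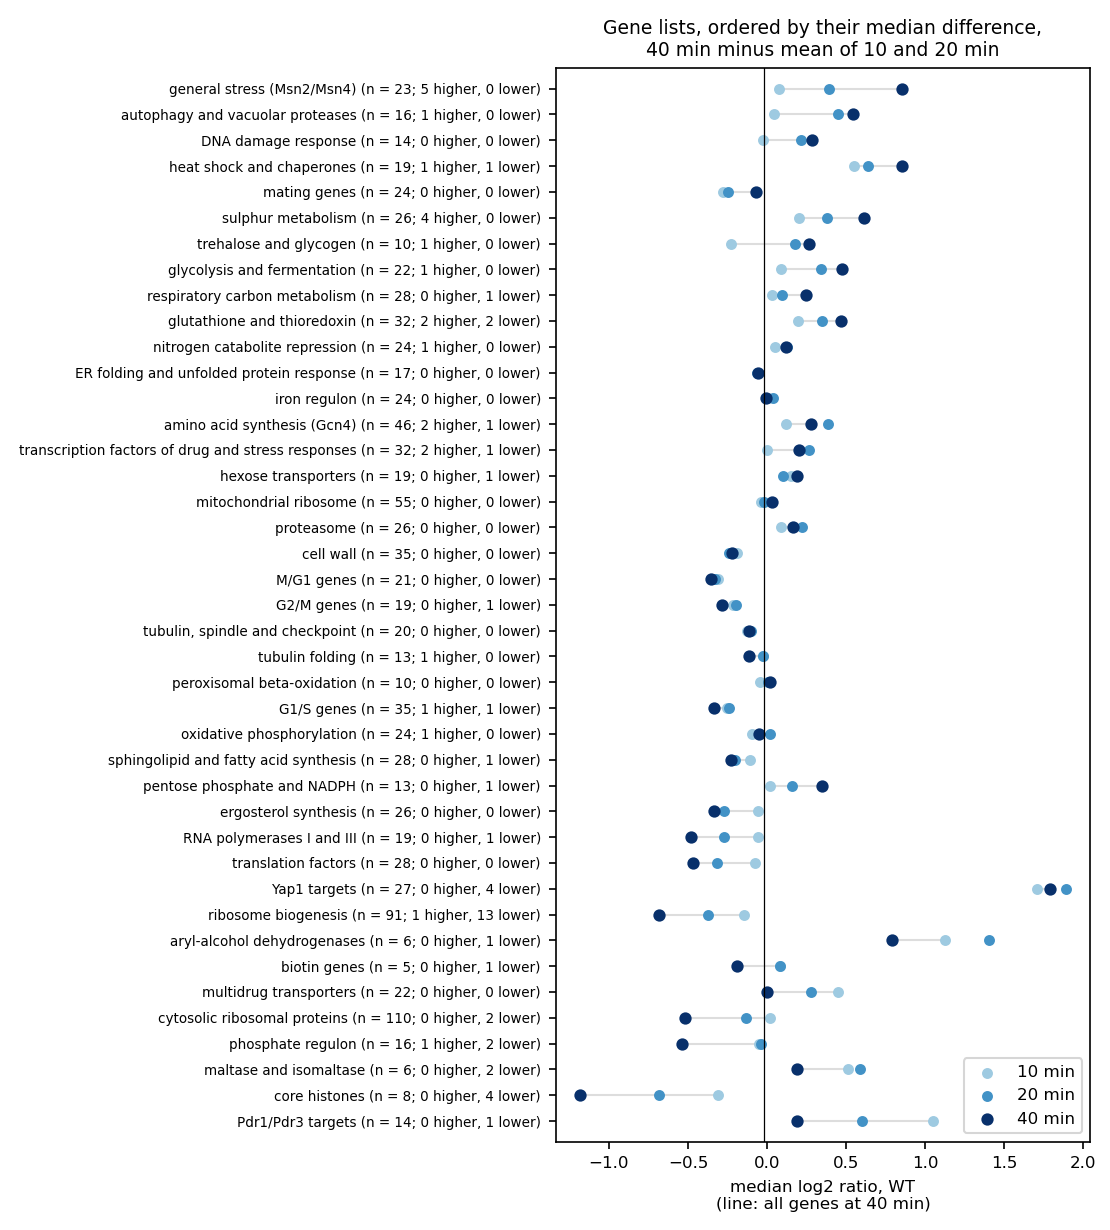
Median log2 ratio of each of 41 gene lists in WT at 10, 20 and 40 min (light to dark points), ordered from the highest to the lowest median difference of 40 min from the mean of 10 and 20 min; labels give the number of genes measured and the calls. General stress genes are at the top with 5 higher and 0 lower, while core histones and targets of Pdr1 and Pdr3 are at the bottom.

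Tubulin, the protein that benomyl binds, showed little late change in its transcripts. TUB1 and TUB3, which encode alpha-tubulin and are alike in sequence, stood at -0.35 and -0.01 at 40 min, and TUB2, for beta-tubulin, stood at 0.19. In the list of tubulin, spindle and checkpoint genes limma called 0 of 20, and 0 had p under 0.05 before adjustment. In the list of tubulin folding genes PAC10, a prefoldin subunit, stood at -0.15, -0.30 and 0.63 and rose by 0.86 ± 0.20. In the phosphate list, with 16 genes tested, PHO5, a secreted acid phosphatase, and SPL2, a regulator of phosphate uptake, fell. Of its 16 differences 12 were below 0, against 48.1% of all genes, and the median difference was -0.52, or -0.17 with scaled arrays. SPL2 stood at 0.47, 0.03 and -1.13 and fell by 1.38 ± 0.26. GPP2, which is also counted there, was the 1 that rose. In 13 of the 41 lists limma called 0 genes. Of their 322 genes tested, counted once per list, 45 had p under 0.05 before adjustment, against 915 of all 4735. Median differences of these 13 lists ran from -0.41 to 0.30. The lowest was that of the multidrug transporters, with 17 of 22 differences below 0, against 48.1% of all genes. The highest was that of the DNA damage response, with 12 of 14 above 0, against 51.9%. The proteasome had a median difference of 0.00 and the mitochondrial ribosome one of 0.01.

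The deletion strains at 10 and 20 min show how the classes behaved on arrays that did not define them. The 66 persistently up genes had a median of 0.07 in DeltaYAP1 at 10 min and 0.25 at 20 min, and 4 of 65 and 4 of 66 measured were 2-fold up there, against 0.255% and 0.274% of all genes. In DeltaPDR1 their medians were 1.22 and 1.58, with 32 of 52 and 38 of 52 genes 2-fold up, against 1.12% and 1.49% of all genes. The pattern was not particular to this class. The 19 genes partly returned from up had medians of 0.06 and 0.145 in DeltaYAP1. In DeltaPDR1 theirs were 0.97 and 0.89, with 15 and 13 genes measured. The 8 returned genes had medians of 0.43 and 0.21 in DeltaYAP1 and of 0.44 and 0.39 in DeltaPDR1. FLR1 stood at 0.06 and -0.20 in DeltaYAP1 and at 4.78 and 6.15 in DeltaPDR1 at 10 and 20 min. BTN2 differed from it, with 2.02 and 1.91 in DeltaYAP1 and 1.55 and 1.60 in DeltaPDR1.

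The newly changed genes had medians close to 0 in both deletion strains. The newly up genes had medians of 0.10 and 0.14 in DeltaYAP1 at 10 and 20 min, with 2 of 58 genes 2-fold up at 20 min, and of 0.16 and 0.10 in DeltaPDR1, beside the 0.015 and 0.39 of WT that defined them. The newly down genes had medians of -0.12 and -0.23 in DeltaYAP1 and of -0.15 and -0.10 in DeltaPDR1, beside -0.07 and -0.47 in WT. At 20 min 77 of 98 newly down genes were below 0 in DeltaYAP1, against 45.4% of all genes, and 50 of 75 in DeltaPDR1, against 50.8%. Whether these genes would change at 40 min without Yap1 or Pdr1 cannot be read from these arrays.

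**Figure D5:**
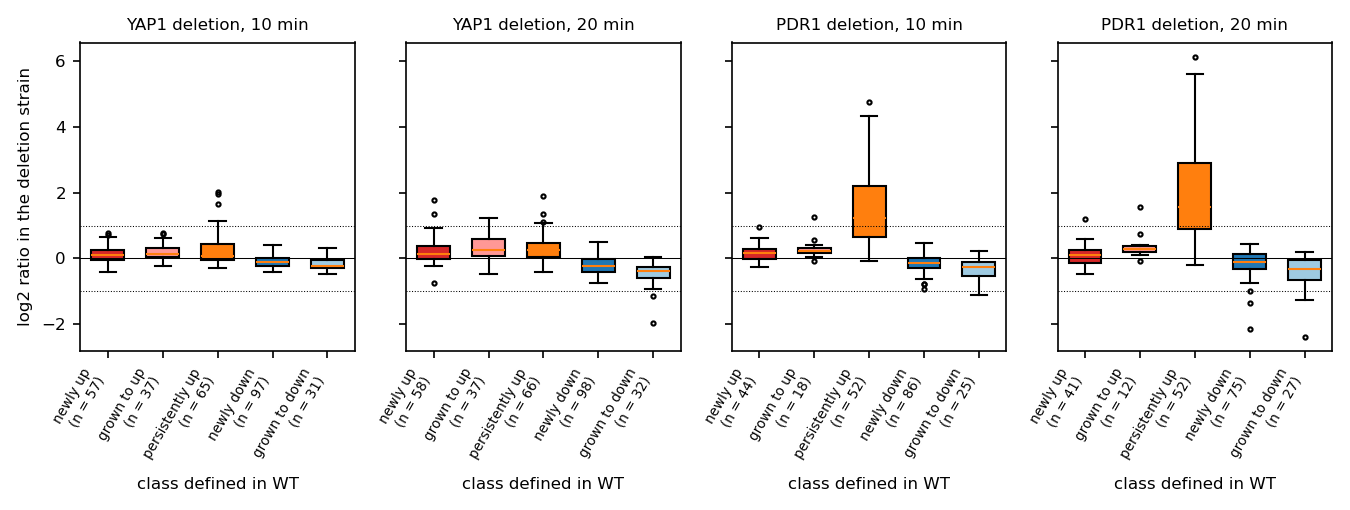
Log2 ratios in the deletion strains at 10 and 20 min of genes grouped by their class in WT; boxes give the quartiles with the median as a line, whiskers reach up to 1.5 times the box height, circles lie beyond, and dotted lines mark 2-fold. The persistently up genes are near 0 in DeltaYAP1, with medians of 0.07 and 0.25, and high in DeltaPDR1, with 1.22 and 1.58, while the newly up and newly down genes are near 0 in both.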

How the data were processed

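The authors deposited 1 log ratio per probe and array. The ratios are taken here as log2, since the submitters give no base: base 10 would put the largest one beyond a million-fold, while natural logarithms remain possible and would make every fold larger. With benomyl over without benomyl is the direction implied by which channel the labels list first. Scanner, dyes, background correction and centring method are not given in the sources used here. Of 6338 probes 5628 carry a gene symbol from the platform annotation, updated through RefSeq R64, and probes of 17 genes were averaged.

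limma 3.58.1 (R 4.3.3; lmFit, then squeezeVar as in eBayes; two-sided) fitted 7 means to all 16 arrays: WT at 40 min, and each strain at 10 and 20 min and up to 4 min. Genes with all 3 late WT values and at least 4 residual degrees of freedom were tested, and shrinkage added 7.18. The fit was tested on simulated data in which a gene had the same spread on every array. That simulation does not cover the wider spread of the 40 min array, and nothing is concluded from it here. Arrays of a phase are different times, not replicates, so p measures the step at 40 min against the spread within phases. The median SD between the WT arrays at 10 and 20 min was 0.153, against 0.132 up to 4 min. Precision is limited by the array number. A fit without WT at 10 or 20 min sets 40 min against the other of these arrays alone.

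Genes chosen to be named are, per class, the 10 (newly up, newly down, persistently and returned from up) or 5 with the largest defining value. The choice also took the 10 highest and 10 lowest called differences and up to 4 per list with the largest absolute difference. FLR1, PDR5, SNQ2, YAP1, PDR1, PDR3 and the tubulin genes were always included. Not every gene so chosen is described above, and TMN3 and CYC1 are among those left out. TFS1, MET5, LEU1, PHO5, HHT2, RPP0, RPL42B and MAK5, called in lists with few calls, were named after their values were seen. Unnamed probes were only counted, apart from the lowest newly down probe, whose values are given. Members and lists were chosen with earlier results of these data known, and after the data were seen 2 list entries were corrected whose alias had matched another gene. No coordinates or sequences are given. Python 3.11.15 and pandas 2.3.3 made the tables.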

Additional observations from a re-analysis of the deposited data

How the results depend on the processing

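Subtracting array medians, removing a trend along probe number and robust shrinkage kept both call counts within 1.5 times of 86 higher and 98 lower. Other settings gave, for higher and lower, 24 and 32 with the 6 WT arrays only, 42 and 51 without the 30 s arrays, 30 and 49 with the 30 s array subtracted, 24 and 44 for genes with values on all 16 arrays (2716 tested, 79 of the 184 calls among them), and 0 and 1 with arrays scaled to equal spread. Leaving out 1 array at a time gave 62 to 218 higher and 50 to 215 lower, both highest without WT at 20 min. With arrays scaled, the classes held 9 newly up (59 as reported), 18 persistently up (66), 18 returned from up (8), 5 newly down (98), 0 persistently down (6) and 2 returned from down (0). A bar of 0.8 gave 118 newly up, 189 newly down, 12 persistently down and 2 returned from down. A bar of 1.5 gave 19 newly up, 27 persistently up, 2 returned from up, 24 newly down and 0 persistently down. Read as natural logarithms, with the bar at 2-fold, the values gave 153 newly up, 107 persistently up, 216 newly down, 27 persistently down and 5 returned from down. A near-zero bar of 0.3 gave 37 newly up, 54 newly down and 5 returned from up, and one of 0.7 gave 14 returned from up and 1 returned from down. With 10 min alone as the earlier level 0 genes were persistently down. With 20 min alone 52 were newly down, 17 persistently down and 8 returned from down. The median difference of 28 of the 41 lists changed sign or moved by more than 1.5 times with 20 min alone. With 10 min alone 23 lists did so. Subtracting the 30 s array left 1 returned from down. The cause of these moves was not tested beyond the change of bar, scale or arrays itself. No paired analysis was possible because each strain and time has 1 array and no replicate numbers are shared. Having 1 array at 40 min limits every call.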

Other observations

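Open reading frames of Ty retrotransposons, a list added after its values were seen, had a median of -0.13 at 10 min, 0.25 at 20 min and 0.71 at 40 min in WT. Of 49 measured, limma called 7 higher and 0 lower, against 1.82% and 2.07% of all genes. Before adjustment 34 were higher at p under 0.05, against 433 of all 4735 genes. Differences above 0 numbered 48 of 49, against 51.9% of all genes, and the median difference of the list was 0.64. The fit called 1 of 54 higher without the 10 min array, 21 of 49 without the 20 min array, and 0 with the 6 WT arrays only or with arrays scaled to equal spread. These elements are near-identical copies whose probes can share signal, so they are not independent of each other. YJL113W stood at -0.25, -0.47 and 0.70 and rose by 1.07 ± 0.21 (adjusted p = 0.0156).

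Genes with values at 20 and 40 min but not at 10 min were outside the classes and untested. Of 946 such genes and probes, 54 stood 2-fold up and 60 2-fold down at 40 min, of which 27 and 26 had been so at 20 min. YNL134C stood at 3.95 at 20 min and 3.94 at 40 min. ENA1, the sodium pump, stood at 0.995 and 3.08. SRX1, sulphiredoxin, stood at 4.97 and 2.49. NOP58, the partner of NOP56 in snoRNPs, stood at -1.39 and -3.07, and ERB1, which acts with YTM1 in large subunit assembly, at -0.30 and -1.64. Other genes of ribosome assembly eased between these times, such as UTP25, at -1.92 and -1.23, and IPI3, at -1.72 and -1.25. HSP42, a small heat shock protein, stood at 3.56 and 1.88. These genes were named after their values were seen.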
